A study of Mus musculus with 8 samples.

Results

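The contractile genes of peritubular myoid cells were followed through sorted testis cells of wild type and Glis3KO2 mouse pups. They are 10 genes of the smooth muscle contractile apparatus: the actins Acta2 and Actg2, the myosin heavy chain Myh11 and its activating kinase Mylk, the actin-binding proteins Tagln, Cnn1, Smtn and Lmod1, the intermediate filament protein Des and the transcriptional coactivator Myocd. Members were taken as every array probe whose RefSeq accession mapped to one of these 10 symbols, whatever its signal. This gave 16 of the 41174 probes on the array, 4 for Acta2, 2 each for Tagln, Myocd and Mylk, and 1 for each of the other 6 genes. All 16 probes were well above background on all 8 arrays, and the 10 genes were among 17504 genes tested.

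RNA was measured on 8 one-colour Agilent mouse arrays, 4 labelled WT and 4 labelled Glis3KO2 (the sample titles write Glis3KO). All animals were C57BL/6 pups at postnatal day 4, kept with their mothers and given no treatment. Cells carrying Thy1, a surface protein of spermatogonial stem cells and of some other cell types, had been isolated from the testis, and the labels call them spermatogonial progenitors. The design text speaks of 3 testes per genotype where the labels list 4 samples of each, and no label ties a sample to an animal of its own. The p-values therefore weigh a difference against the scatter of these samples, part or all of which may be technical. The Glis3KO2 label names no deleted exon, no Cre and no promoter, so the allele is described here only by its name. From each sample 1.5 µl of total RNA was amplified with the NuGEN Ovation Pico system before 5 µg of cDNA was labelled with Cy3. The RNA comes from all sorted cells together, so fewer cells of a type and less RNA per cell cannot be told apart.

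Peritubular myoid cells are flat, smooth-muscle-like cells that wrap the seminiferous tubule, and their contraction moves fluid and sperm along it. They share their contractile genes with vascular and visceral smooth muscle. In such cells serum response factor (SRF) binds CArG boxes near these genes, and myocardin, the product of Myocd, or a related factor is recruited there to drive their transcription. Their development depends on hedgehog signals from Sertoli cells, and they respond to androgens and supply growth factors to spermatogonial stem cells.

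Values are log2 of the processed signal relative to the 75th percentile of the same array, so 0 lies at that percentile and a step of 1 is a doubling. The 75th percentile itself was between 243 and 533 signal units, and 86.0% to 90.3% of spots per array were well above background. The Glis3 probe read −1.09, −1.01, 0.57 and 0.60 on the WT arrays and −1.98, −2.18, −1.18 and −1.32 on the Glis3KO2 arrays, replicates 1 to 4 in order. Every Glis3KO2 array was thus below every WT array, as in 2.6% of all genes tested. The difference was −1.43 (SE 0.45, limma adjusted p = 0.697), but the labels do not say whether this probe lies in the deleted part of the gene. Without WT replicates 3 and 4 the difference was −0.62. The WT arrays themselves split, with replicates 3 and 4 above replicates 1 and 2 for Glis3 and for germ cell markers. The mean of 14 germ cell markers, centred on the 8 arrays, was 0.84 and 1.22 on WT replicates 3 and 4 and −0.34 and −0.16 on WT replicates 1 and 2. Germ cell markers were therefore present on all arrays, and all 14 were well above background on all 8. Thy1, the marker of the sort, read 1.22 ± 0.89 on WT arrays and 1.88 ± 0.54 on Glis3KO2 arrays (SD, n = 4 each; limma adjusted p = 0.712). Its difference of 0.65 was 0.23 without WT replicate 4 and 0.078 without WT replicates 3 and 4. Which of these 2 WT pairs is the unusual one cannot be told. The differences of the contractile genes are also given without WT replicates 3 and 4, and with replicates 3 and 4 of both genotypes only. No fit left out WT replicates 1 and 2 alone. For 8 of the 10 members WT replicates 3 and 4 lay below WT replicates 1 and 2. Leaving them out therefore makes those differences smaller by construction. The array weights estimated by limma were 0.55 and 0.58 for WT replicates 1 and 2, and 1.48 and 1.23 for replicates 3 and 4. On both slides the WT arrays filled positions 1 and 2 and the Glis3KO2 arrays positions 3 and 4, so genotype and slide position cannot be told apart.

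All 10 contractile genes had a higher mean in Glis3KO2 than in WT, where 40.8% of all genes tested did. The members were chosen with earlier results of these data known. They also varied together across the arrays, so the 10 are not separate observations. The differences were 1.6 for Myocd, 1.39 for Des, 1.22 for Myh11, 1.18 for Mylk, 1.02 for Cnn1, 0.99 for Tagln, 0.87 for Actg2 and 0.76 for Acta2, against 0.057 for Lmod1 and 0.054 for Smtn. The median difference over the 10 genes was 1.01, beside −0.08 over all genes tested. None of the 10 passed the threshold, an adjusted p under 0.05 (limma, adjusted over all genes by Benjamini and Hochberg), and neither did any other gene, so the percentage of all genes called was 0.0%. At an unadjusted p under 0.05, 2 members were higher, Des and Myocd, where 2.15% of all genes were higher and 4.75% lower. Those percentages stand for 377 and 831 genes, and after normexp background correction and quantile normalization they were 467 and 618. In none of the 10 genes did the arrays of the genotypes separate completely, which 0.903% of all genes did with Glis3KO2 higher. The plot of signal by array shows this overlap gene by gene.

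**Figure D1:**
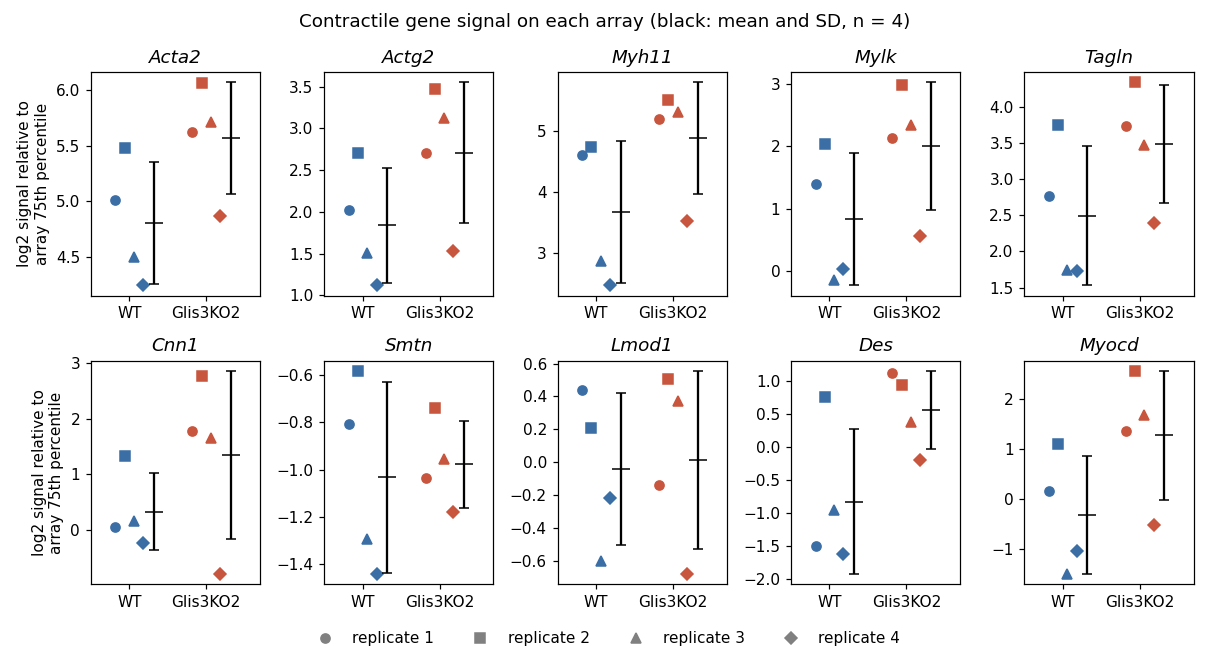
Each panel plots 1 contractile gene (log2 signal, with the 75th percentile of the array at 0) on the 4 WT arrays (blue) and 4 Glis3KO2 arrays (red), with the symbol giving the replicate number and the black bars the mean and SD. Glis3KO2 replicate 4 (diamond) is the lowest Glis3KO2 array in all 10 panels, and the genotypes overlap in each.

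Arrays with the same replicate number deviated together weakly, with correlations over all genes from 0.13 to 0.34. Glis3KO2 replicate 4 went with WT replicate 3 (0.14) as much as with WT replicate 4 (0.13). The labels do not say what a shared number means, and the block was adopted after these correlations were seen. A fit with that number as a block changed the count. With the replicate block, 8 of the 10 members had an unadjusted p under 0.05, all but Lmod1 and Smtn, where 4.39% of all genes were higher at that level, and 0 of the 10 passed the adjusted threshold (limma, adjusted p from 0.422 to 0.956). In 7 genes the Glis3KO2 array was above the WT array in 4 of 4 numbered pairs, where 7.35% of all genes were. Cnn1 was higher in 3 of 4 pairs, and Lmod1 and Smtn in 2 of 4. Pair 3 held the widest difference for Acta2, Actg2, Myh11, Mylk, Tagln, Myocd, Lmod1 and Smtn, up to 3.18 for Myocd and 2.49 for Mylk.

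Without WT replicates 3 and 4 the median difference over the 10 genes was 0.31 and no member, 0 of 10, reached an unadjusted p under 0.05. In that fit 359 of 17504 genes were higher in Glis3KO2 at that level. The differences then were 0.94 for Des, 0.65 for Cnn1, 0.64 for Myocd, 0.35 for Actg2, 0.32 for Acta2, 0.29 for Mylk, 0.24 for Tagln and 0.21 for Myh11, with −0.28 for Smtn and −0.31 for Lmod1. With 1 array left out, the median was 0.66 without Glis3KO2 replicate 2, 0.78 without WT replicate 4, 0.81 without WT replicate 3, 1.38 without WT replicate 2 and 1.5 without Glis3KO2 replicate 4. Leaving out single arrays moved the count of 2 members at an unadjusted p under 0.05 to 8 without Glis3KO2 replicate 4 and to 7 without WT replicate 2. It was 1 without WT replicate 3 or Glis3KO2 replicate 3, and 0 without WT replicate 4, Glis3KO2 replicate 1 or Glis3KO2 replicate 2. Over all 17504 genes the number higher in Glis3KO2 at that level moved as well. That number was 377 with all arrays, 557 without Glis3KO2 replicate 4 and 806 without WT replicate 2. It was 215 without WT replicate 3 and 306 without WT replicate 4. Without Glis3KO2 replicate 1, 2 or 3 it was 299, 256 and 341 in turn. With replicates 3 and 4 of both genotypes only, the difference was 1.86 for Myocd, 1.75 for Myh11, 1.52 for Mylk and 1.38 for Des. There it was 1.20 for Tagln, 1.02 for Actg2, 0.92 for Acta2, 0.47 for Cnn1, 0.30 for Smtn and 0.25 for Lmod1. That fit dropped the WT arrays that were higher for 8 of the 10 members, and Glis3KO2 replicates 1 and 2. Within slide 1, which carried replicates 1 and 3, the median difference was 1.43, and within slide 2, which carried replicates 2 and 4, it was 0.62.

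**Figure D2:**
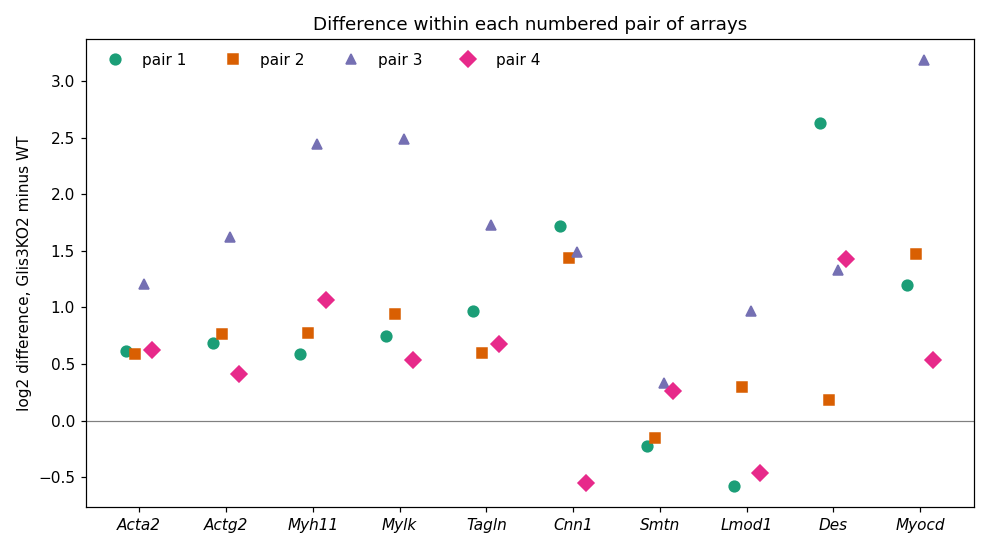
For each contractile gene the points give the log2 difference, Glis3KO2 minus WT, between the 2 arrays with the same replicate number. Points of pair 3 (triangles) reach 3.18 for Myocd, 8 genes have at least 3 of 4 points above the line at 0, and Smtn and Lmod1 lie on both sides of it.

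Because the members varied together across arrays, their promoters were searched for the CArG box, a palindromic motif of 10 letters, so that both strands were read at once, and no other motif was searched. RefSeq promoter sequences of assembly GRCm38.p6, from 250 bases before to 50 bases after the start, were at hand for 6 of the 10 members: Acta2, Cnn1, Des, Lmod1, Mylk and Smtn. No exact match lay in these 6, and 535 of 32851 promoters (1.63%) held one. Allowing 1 differing letter, Acta2 and Lmod1 matched, each at 2 places, and 6936 of all promoters (21.1%) did. The 250 bases before the start are printed for 3 members, 5′ to 3′ on the gene's strand, with each match in capitals. Acta2 (chr19:34255374-34255623, minus strand) and Lmod1 (chr1:135324563-135324812, plus strand) are the members with matches, and Des (chr1:75360042-75360291, plus strand) is a member without one.
Acta2: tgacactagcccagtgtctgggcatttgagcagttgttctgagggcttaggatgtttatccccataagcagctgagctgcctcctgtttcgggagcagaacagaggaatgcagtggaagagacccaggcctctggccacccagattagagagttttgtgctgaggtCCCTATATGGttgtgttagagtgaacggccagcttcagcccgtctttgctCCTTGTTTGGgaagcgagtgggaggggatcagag
Lmod1: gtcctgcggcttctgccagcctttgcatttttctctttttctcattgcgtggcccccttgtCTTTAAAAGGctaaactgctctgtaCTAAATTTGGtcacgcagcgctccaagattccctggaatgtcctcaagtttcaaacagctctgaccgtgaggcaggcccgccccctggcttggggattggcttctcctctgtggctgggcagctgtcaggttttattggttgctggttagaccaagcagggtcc
Des: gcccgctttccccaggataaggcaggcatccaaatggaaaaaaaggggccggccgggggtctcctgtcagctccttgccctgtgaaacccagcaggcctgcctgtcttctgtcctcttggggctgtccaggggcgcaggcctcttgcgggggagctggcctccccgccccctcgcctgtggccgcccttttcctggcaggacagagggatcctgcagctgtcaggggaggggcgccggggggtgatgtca
The matches of Acta2 begin at −84 and −34, counted from the start, and read CCCTATATGG and CCTTGTTTGG. Those of Lmod1 begin at −189 and −164 and read CTTTAAAAGG and CTAAATTTGG. A match is a string of letters here, and its absence says only that these letters are not in this window.

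Among the actins, Acta2 encodes smooth muscle alpha-actin, the usual marker of peritubular myoid cells. Its brightest probe (A_51_P450957) read 5.01, 5.48, 4.50 and 4.24 on WT replicates 1 to 4 and 5.63, 6.07, 5.71 and 4.87 on Glis3KO2 replicates 1 to 4. Glis3KO2 replicates 1 to 3 were above all WT arrays and replicate 4 was below WT replicates 1 and 2. The means were 4.81 ± 0.55 and 5.57 ± 0.51 (SD, n = 4 each), a difference of 0.76 (SE 0.34, 95% interval −0.005 to 1.53), or 1.69-fold, with a limma adjusted p of 0.697. Actg2, the gamma-actin of visceral smooth muscle, read 2.02, 2.70, 1.51 and 1.12 in WT and 2.71, 3.47, 3.13 and 1.53 in Glis3KO2. The order of the 8 arrays was that of Acta2, again with WT replicates 3 and 4 and Glis3KO2 replicate 4 low. The difference was 0.87 (SE 0.46, interval −0.15 to 1.90; limma adjusted p = 0.697).

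Acta2 was measured by 3 further probes, which did not give the same size of difference. A_52_P210078 read 3.03, 4.31, 0.81 and 1.11 in WT and 4.37, 5.09, 4.35 and 1.40 in Glis3KO2. Its signal before scaling was 36.8-fold higher on the brightest than on the dimmest array, and that of A_51_P450957 was 5.97-fold higher. A_52_P420504, printed at 10 spots per array, read 3.26, 4.17, 1.38 and 1.34 in WT and 4.04, 5.10, 4.28 and 1.89 in Glis3KO2. In a fit over all 36429 kept probes the differences of these 2 probes were 1.49 (SE 0.93; limma adjusted p = 0.761) and 1.29 (SE 0.79; limma adjusted p = 0.761). The fourth probe, A_52_P239556, was dim, between 21.3 and 50.6 signal units, and differed by 0.094 (SE 0.27; limma adjusted p = 0.952). It ran from −3.52 to −3.39 in WT and from −3.77 to −2.75 in Glis3KO2, without the split of WT replicates shown by the other 3.

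**Figure D3:**
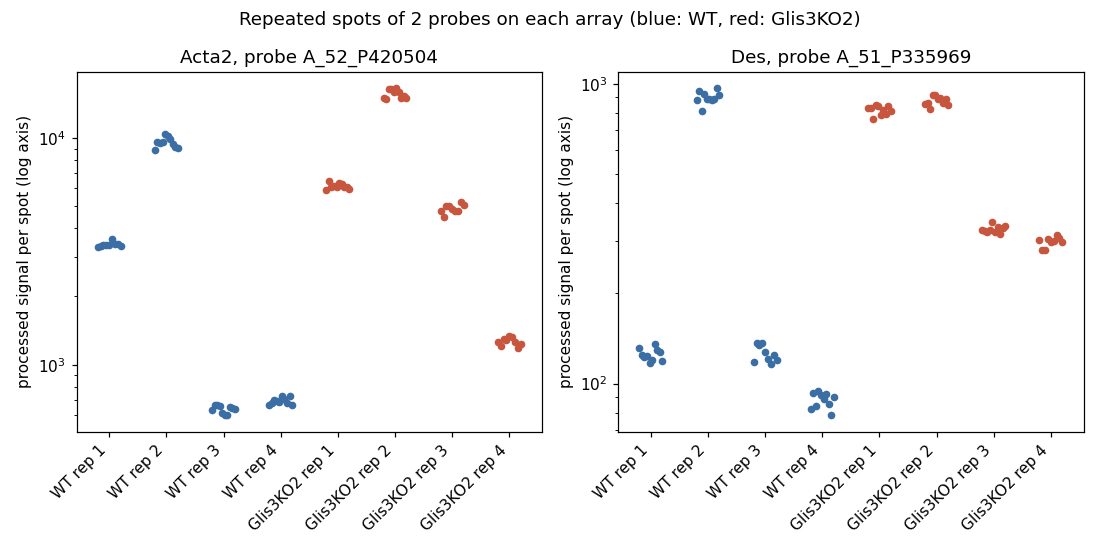
Processed signal (log axis) of every spot used of the Acta2 probe A_52_P420504 and of the Des probe A_51_P335969 on each array, blue for WT and red for Glis3KO2. Spots of an array lie close together, with coefficients of variation of 2.39% to 5.32% for Acta2 and 2.77% to 6.36% for Des. Array means run from 635 to 15693 signal units for Acta2 and from 88.0 to 900 for Des.

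The repeated spots give the measurement error within an array. Over its 10 spots the SD of Acta2 probe A_52_P420504 was 0.034 to 0.076 on the log2 scale, and its array mean ran from 635 signal units on WT replicate 3 to 15693 on Glis3KO2 replicate 2. The Des probe, also at 10 spots, had an SD of 0.040 to 0.091 over spots and array means from 88.0 on WT replicate 4 to 900 on WT replicate 2. On the scaled log2 values the SD between arrays was 1.41 in WT and 1.37 in Glis3KO2 for this Acta2 probe, and 1.10 and 0.60 for Des.

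Of the motor and its activator, Myh11 encodes the smooth muscle myosin heavy chain. It read 4.6, 4.74, 2.86 and 2.46 in WT and 5.19, 5.51, 5.31 and 3.52 in Glis3KO2. The WT arrays fell into a high and a low pair, and Glis3KO2 replicate 4 lay between those pairs. Its means were 3.67 ± 1.17 and 4.88 ± 0.92 (SD, n = 4 each), a difference of 1.22 (SE 0.61, interval −0.13 to 2.57; limma adjusted p = 0.697). Mylk encodes myosin light chain kinase, which switches the motor on when calcium enters. Its brighter probe, A_52_P145912, read 1.39, 2.03, −0.15 and 0.026 in WT and 2.14, 2.97, 2.34 and 0.57 in Glis3KO2, and the second, A_52_P575217, 0.65, 1.59, −0.40 and −0.61 against 1.55, 2.55, 1.79 and 0.12. Both probes had Glis3KO2 replicates 2 and 3 highest and WT replicates 3 and 4 lowest, and their differences were 1.18 (SE 0.60; limma adjusted p = 0.697) and 1.19 (SE 0.59; limma adjusted p = 0.759 over probes).

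The actin-binding proteins divided. Tagln (transgelin, or SM22) is an early smooth muscle marker that binds actin filaments, and it read 2.76, 3.74, 1.74 and 1.72 in WT and 3.73, 4.34, 3.48 and 2.40 in Glis3KO2. Only Glis3KO2 replicate 2 was above all WT arrays, because WT replicate 2 was high. The difference was 0.99 (SE 0.52, interval −0.17 to 2.16; limma adjusted p = 0.697), or 1.99-fold. Its dimmer probe, A_52_P517683, read −1.57, 0.43, −1.63 and −1.71 in WT and 0.63, 0.89, 0.46 and −1.83 in Glis3KO2, a difference of 1.16 (SE 0.66; limma adjusted p = 0.761). On this probe WT replicate 2 stood with the high Glis3KO2 arrays and Glis3KO2 replicate 4 with the low WT arrays. Cnn1 encodes calponin, which restrains the myosin motor on actin. It read 0.048, 1.33, 0.16 and −0.25 in WT and 1.77, 2.77, 1.65 and −0.80 in Glis3KO2. Glis3KO2 replicates 1 to 3 were above all WT arrays and replicate 4 was the lowest of the 8, which gave an SD of 1.52 in Glis3KO2 against 0.70 in WT. The difference was 1.02 (SE 0.67, interval −0.48 to 2.52; limma adjusted p = 0.708). It was 0.55 without Glis3KO2 replicate 2 and 1.74 without Glis3KO2 replicate 4.

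Smtn and Lmod1, the other 2 actin-binding members, differed little between genotypes and kept no fixed sign. Smtn encodes smoothelin, a protein of the contractile smooth muscle cytoskeleton, and read −0.81, −0.58, −1.29 and −1.44 in WT and −1.03, −0.74, −0.96 and −1.18 in Glis3KO2. All Glis3KO2 arrays lay within the WT range, with a difference of 0.054 (SE 0.25, interval −0.51 to 0.62; limma adjusted p = 0.962). Lmod1 encodes leiomodin, which starts actin filaments in smooth muscle, and read 0.44, 0.21, −0.60 and −0.22 in WT and −0.14, 0.51, 0.37 and −0.68 in Glis3KO2. High and low arrays occurred in both genotypes, and the difference was 0.057 (SE 0.33, interval −0.68 to 0.80; limma adjusted p = 0.970). These intervals leave room for differences of either sign. Smtn turned to −0.035 after normexp correction with 75th percentile scaling. The difference of Smtn was −0.033 without WT replicate 3, −0.082 without WT replicate 4 and −0.025 without Glis3KO2 replicate 2. That of Lmod1 was −0.13 without WT replicate 3, −0.00068 without WT replicate 4, −0.11 without Glis3KO2 replicate 2 and −0.062 without Glis3KO2 replicate 3.

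Des encodes desmin, the muscle intermediate filament that links the contractile units to the cell's cortex. It read −1.51, 0.76, −0.95 and −1.63 in WT and 1.13, 0.93, 0.38 and −0.20 in Glis3KO2. The single high WT array, replicate 2, exceeded Glis3KO2 replicates 3 and 4 and gave the overlap. Its means were −0.83 ± 1.10 and 0.56 ± 0.60 (SD, n = 4 each), a difference of 1.39 (SE 0.52, interval 0.24 to 2.55), or 2.63-fold, with a limma adjusted p of 0.697. The pair differences were 2.63, 0.18, 1.33 and 1.43, and the slides gave 1.98 and 0.80.

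Myocd, the coactivator that works with SRF, had the widest difference of the 10 genes. It read 0.17, 1.10, −1.5 and −1.05 in WT and 1.37, 2.57, 1.68 and −0.51 in Glis3KO2. Glis3KO2 replicates 1 to 3 were above all WT arrays and replicate 4 was below WT replicates 1 and 2. The means were −0.32 ± 1.18 and 1.28 ± 1.29 (SD, n = 4 each), a difference of 1.6 (SE 0.70, interval 0.029 to 3.17), or 3.03-fold, with a limma adjusted p of 0.697. The second Myocd probe, A_52_P557424, read −2.32, −0.48, −1.87 and −2.17 in WT and −1.39, −0.26, −1.38 and −1.28 in Glis3KO2. On this probe WT replicate 2 was above Glis3KO2 replicates 1, 3 and 4, unlike on the first probe, where it was below Glis3KO2 replicates 1 to 3. WT replicate 1 was the lowest here, and the difference was 0.64 (SE 0.44, limma adjusted p = 0.771). Averaging the probes of a gene left 1 member, Des, at an unadjusted p under 0.05.

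**Figure D4:**
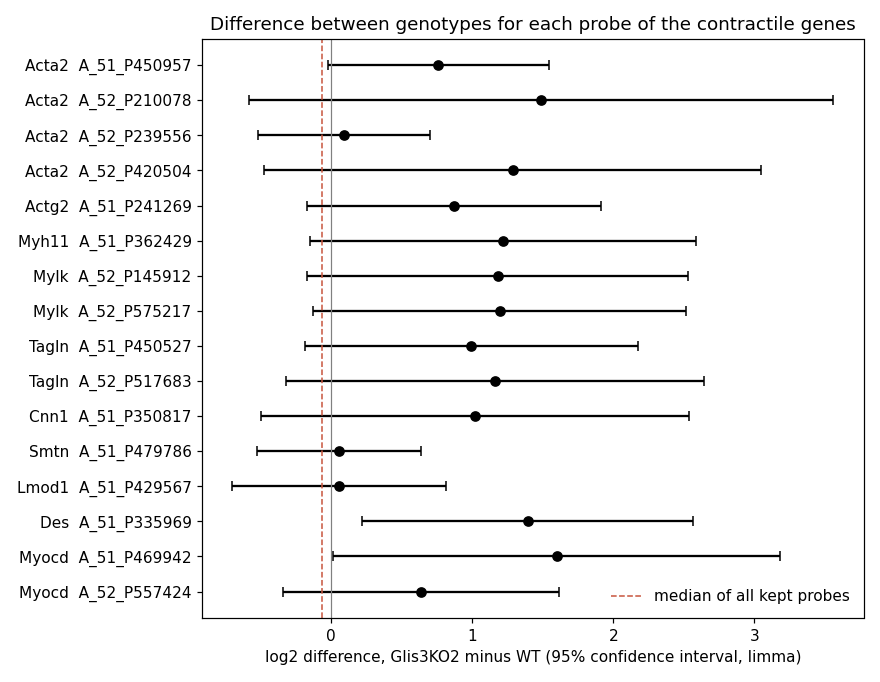
Points give the log2 difference between genotypes, Glis3KO2 minus WT, for each of the 16 probes, with the 95% confidence interval of the limma fit over all kept probes, and the dashed line marks the median of all kept probes, −0.06. All 16 points lie above 0, and only the intervals of Des A_51_P335969 and Myocd A_51_P469942 exclude 0.

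Over the probes, 16 of 16 had a higher mean in Glis3KO2, where 43.2% of all kept probes did, with a median difference of 1.09 beside −0.06 over all kept probes. At an unadjusted p under 0.05, 2 were higher, where 2.5% of all kept probes were higher and 3.89% lower. After adjustment 0 of 36429 probes passed in the limma fit, and the smallest adjusted p of any probe was 0.184.

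The contractile genes varied more between arrays than most genes did. The median within-group SD of the 10 genes was 0.89 beside 0.43 over all genes, and ran from 0.31 for Smtn to 1.24 for Myocd. The median range over the 8 arrays was 2.69 beside 1.30, and 6 of the 10 genes had a range above the 90th percentile of all genes. The arrays took much the same order from gene to gene. Glis3KO2 replicate 2 was the highest of all 8 arrays for 8 genes, WT replicate 2 for Smtn and Glis3KO2 replicate 1 for Des. WT replicate 4 was the lowest for 6 genes, WT replicate 3 for 2, and Glis3KO2 replicate 4 for Cnn1 and Lmod1. The mean of the 10 genes, each centred on the 8 arrays, was −0.22, 0.52, −1.0 and −1.13 on the WT arrays and 0.62, 1.21, 0.68 and −0.68 on the Glis3KO2 arrays.

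As a description over the same 8 arrays, which share their scaling, Pearson's r between pairs of members ran from 0.28 to 0.99 with a median of 0.82 over 45 pairs. Without Smtn, Lmod1 and Des the 21 pairs had r from 0.82 to 0.99 with a median of 0.97. Des followed the other 7 less closely, at 0.76 to 0.87, and its order differed mainly in WT replicate 1, which was nearly as low as WT replicate 4. Against the mean of the 10 genes, of which each gene is a part, r was 0.99 for Mylk, Acta2, Tagln, Myocd and Actg2, 0.96 for Myh11, 0.92 for Cnn1, 0.85 for Des, 0.79 for Smtn and 0.74 for Lmod1.

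Among the 10 genes outside the group whose values were most like the members' mean over the 8 arrays were Col8a2 (r = 0.997), Actc1 (0.994), Cnrip1 (0.992), Myl9 (0.991), Mfap2 (0.986), Vldlr (0.986), Fzd1 (0.985), Rhobtb1 (0.985) and Pls3 (0.985). Col8a2 encodes a collagen chain, Mfap2 a microfibril protein, Fzd1 a Wnt receptor, Vldlr a lipoprotein and reelin receptor, and Pls3 an actin-bundling protein. Col8a2 read 0.28, 1.44, −0.71 and −1.0 in WT and 1.45, 2.32, 1.39 and −0.43 in Glis3KO2, the order already seen for Acta2 but for the nearly equal WT replicate 2 and Glis3KO2 replicates 1 and 3. The differences of the 9 genes named ran from 0.51 (SE 0.31) for Rhobtb1 to 2.23 (SE 1.08) for Vldlr. None passed the threshold (limma adjusted p from 0.697 to 0.720).

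The wider contractile programme was read through 7 lists holding 89 genes, of which 85 were measured. In them 68 genes had a higher mean in Glis3KO2 and 17 a lower one, with a median difference of 0.40, beside −0.08 over all genes tested, of which 40.8% had a higher mean. At an unadjusted p under 0.05, 3 were higher and 1 was lower, where 2.15% of all genes were higher and 4.75% lower, and 0 of 85 passed the adjusted threshold (limma). Without WT replicates 3 and 4 the median was 0.060, and that of the receptor list was 0.19. Receptors and readouts of contractile and inductive signals in myoid cells had a median of 0.89, other actins 0.58, proteins of dense bodies, linkers and adhesions 0.53, thin filament proteins 0.42, myosin II chains 0.21, the genes of calcium and its downstream control 0.16, and SRF with its cofactors and opponents 0.09.

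Of the 9 genes on the receptor list, which also holds the hedgehog readout Gli1, 9 had a higher mean in Glis3KO2. The receptor Agtr1a and Gli1 had an unadjusted p under 0.05. Agtr1a, an angiotensin receptor, read −0.86, −1.45, −2.20 and −1.47 in WT and −1.11, −0.67, −0.73 and 0.11 in Glis3KO2. Its Glis3KO2 replicates 2 to 4 were above all WT arrays, and replicate 4, the low array for the contractile genes, was here the highest, with a difference of 0.89 (SE 0.34; limma adjusted p = 0.697). Gli1, a transcription factor and standard readout of hedgehog signalling, had a difference of 0.90 (SE 0.38; limma adjusted p = 0.697). It read −2.33, −0.67, −1.20 and −1.91 in WT and −0.92, 0.041, −0.71 and −0.90 in Glis3KO2, with WT replicate 2 above 3 of the 4 Glis3KO2 arrays. Avpr1a, the vasopressin receptor, differed by 1.44 (SE 0.70; limma adjusted p = 0.697), and its probe exceeded background clearly on 3 of the 4 WT arrays and on all 4 Glis3KO2 arrays. Without WT replicates 3 and 4 its difference was 0.033.

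All 4 other actins had a higher mean, Actc1 by 1.37 (SE 0.74), Acta1 by 0.93 (SE 0.52) and Actb, the cytoplasmic beta-actin, by 0.18 (SE 0.21). Actc1 is the actin of the heart, and its order of arrays was close to that of the contractile genes. Of the 8 myosin II chains, 6 were higher and 2 lower in mean. Myl9, the regulatory light chain that Mylk phosphorylates, differed by 1.12 (SE 0.62), and Myl6, the essential light chain, by 0.66 (SE 0.38). Myl6b, an essential light chain of non-muscle and slow muscle cells, went the other way at −1.55 (SE 0.53; limma adjusted p = 0.697). It read −3.91, −3.89, −3.16 and −3.58 in WT and −4.94, −7.01, −4.47 and −4.31 in Glis3KO2, with every Glis3KO2 array below every WT array, as in 2.6% of all genes. It cleared background on the 4 WT arrays but on only 2 of the 4 Glis3KO2 arrays, and after other scalings or background corrections the difference was as small as −0.23.

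Among 12 thin filament proteins 9 were higher in mean, led by the tropomyosins Tpm2 (1.28, SE 0.65) and Tpm1 (0.73, SE 0.38) and by caldesmon, Cald1 (0.80, SE 0.50). Cald1 showed the split of the WT arrays, with 4.71 and 4.96 on WT replicates 1 and 2 and 3.30 and 2.89 on replicates 3 and 4, and without the latter its difference was −0.065. Among 20 genes of calcium and its downstream control 14 were higher in mean. Gucy1a1, a subunit of the nitric oxide receptor that relaxes smooth muscle, differed by 0.64 (SE 0.30), Prkg1, the cGMP-dependent kinase downstream of it, by 1.02 (SE 0.52), and the calcium release channel Itpr1 by 0.60 (SE 0.32). Among 20 genes of dense bodies, linkers and adhesions 17 were higher in mean, with Synpo2 at 0.95 (SE 0.49), Nexn at 0.97 (SE 0.52) and filamin A, Flna, at 0.89 (SE 0.49). Flna was −0.040 without WT replicates 3 and 4. None of the genes named here passed the threshold, and their smallest limma adjusted p was 0.697.

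Of SRF and its cofactors and opponents, 9 of 12 measured genes were higher in mean. Srf itself differed by 0.17 (SE 0.23), and the myocardin-related factors Mrtfa and Mrtfb by 0.23 (SE 0.27) and −0.15 (SE 0.21), where Myocd differed by 1.6. Fhl1, a LIM protein of muscle, had 2.17, 2.30, 2.17 and 1.64 in Glis3KO2 against 1.71, 1.47, 1.46 and 1.38 in WT, so that Glis3KO2 replicate 4 alone overlapped with WT. Its difference was 0.56 (SE 0.22; limma adjusted p = 0.697), and it was 0.48 with WT replicates 3 and 4 left out. Csrp1, a LIM protein that works with SRF, differed by 0.91 (SE 0.45).

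Markers of other cell types were set beside the contractile genes, since several share parts of this programme. Of 9 vascular mural cell markers 8 had a higher mean in Glis3KO2, with a median difference of 0.44. Rgs5, a pericyte marker, read 2.13, 2.13, 1.14 and 1.19 in WT and 2.81, 1.89, 2.89 and 1.80 in Glis3KO2 (difference 0.70, SE 0.36; limma adjusted p = 0.697), so that replicate 2 was not its highest Glis3KO2 array as it was for Acta2. Summed over the mural list, the linear signal relative to the 75th percentile ran from 25.4 to 35.2 in WT and from 23.3 to 34.4 in Glis3KO2, while that of the 10 contractile genes ran from 33.8 to 103 and from 53.5 to 169. All 9 measured mural markers were well above background on all 8 arrays. Of 17 skeletal muscle markers 6 were higher and 11 lower in mean (median −0.31), and all 17 were well above background on all 8 arrays. Their summed signal was 31.3 to 34.9 in WT and 25.6 to 43.3 in Glis3KO2, of which Myod1 alone gave 27.8 to 29.4 and 21.3 to 39.3, with a log2 difference of 0.027 (SE 0.23). The other 16 summed to 3.56 to 5.58 in WT and 3.49 to 4.28 in Glis3KO2. Of 7 cardiac markers 1 was higher and 6 lower, with a median of −0.27 and sums of 8.42 to 9.94 in WT and 6.35 to 8.87 in Glis3KO2. The part of these cells in the contractile gene values was not tested.

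Stromal fibroblast markers were high and low on much the same arrays as the contractile genes, as the plot of profiles over the arrays shows. The germ cell mean was highest on WT replicates 3 and 4, where the contractile mean was lowest. On WT replicate 1 and Glis3KO2 replicate 4 the germ cell and contractile means were both below 0. Of 12 stromal markers 12 had a higher mean in Glis3KO2, where 40.8% of all genes did, with a median of 0.90. At an unadjusted p under 0.05, 2 were higher, where 2.15% of all genes were, and 0 passed after adjustment (limma). Their summed signal ran from 58.4 to 237 in WT and from 121 to 437 in Glis3KO2, and their centred means were −0.55, 0.85, −1.08 and −1.04 in WT and 0.06, 1.75, 0.04 and −0.03 in Glis3KO2. On Glis3KO2 replicate 4 the contractile genes were at −0.68 where the stromal markers were at −0.03. Of 14 germ cell markers 0 had a higher mean and 14 a lower one, with a median of −0.85. At an unadjusted p under 0.05, 4 were lower, where 4.75% of all genes were, and 0 passed after adjustment (limma). Their summed signal ran from 28.4 to 108 in WT and from 27.5 to 44.7 in Glis3KO2. Of 12 Sertoli cell markers 2 were higher and 10 lower (median −0.26, summed 21.3 to 35.0 in WT and 17.8 to 27.7 in Glis3KO2). Their centred means were −0.41, −0.47, 0.83 and 0.65 in WT and −0.54, −0.68, −0.10 and 0.72 in Glis3KO2. They were thus above 0 only on WT replicates 3 and 4 and Glis3KO2 replicate 4, the arrays where the contractile mean was lowest. On Glis3KO2 replicate 4 the germ cell mean was −0.16. With WT replicates 3 and 4 left out, the medians were 0.34 for stromal, −0.060 for germ cell, 0.32 for Sertoli cell and 0.016 for mural markers, beside 0.31 for the contractile genes. The signal of these cell types thus differed between arrays, that of germ cells mainly on WT replicates 3 and 4. The part of these cell types in the contractile gene values was not tested.

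**Figure D5:**
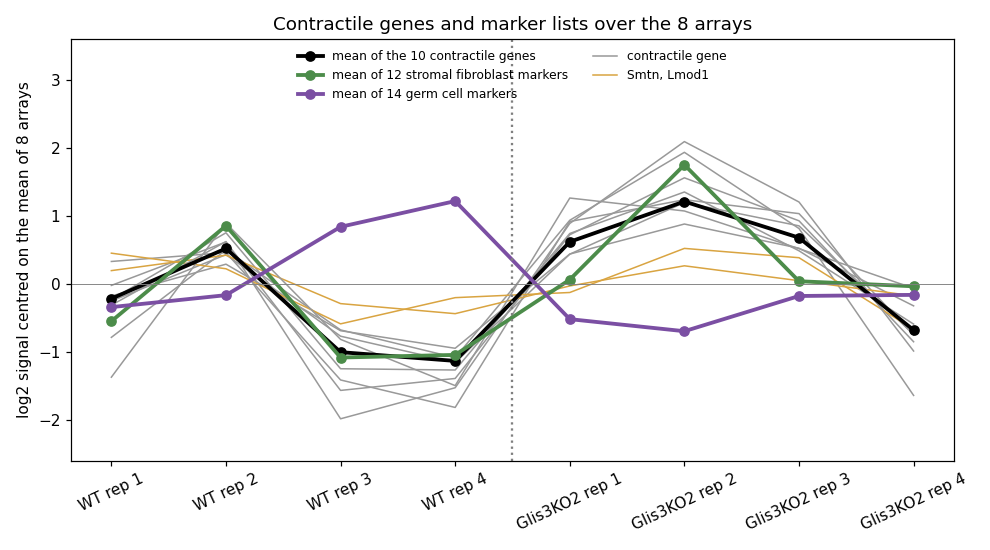
Log2 signal centred on the mean of the 8 arrays for each contractile gene (thin lines, Smtn and Lmod1 in orange), for the mean of the 10 (black), of 12 stromal fibroblast markers (green) and of 14 germ cell markers (purple). Lines join values of the same gene or list and arrays have no order, and the contractile and stromal means are lowest on WT replicates 3 and 4, where the germ cell mean is highest.

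Leydig cell, endothelial and macrophage markers were read in the same way. The Leydig list had a median of −0.49 over 7 measured genes, with summed signal of 9.66 to 69.5 in WT and 17.4 to 21.1 in Glis3KO2. Of 10 endothelial markers 5 were higher and 5 lower (median 0.046, summed 2.97 to 6.39 in WT and 4.12 to 7.34 in Glis3KO2), and of 12 macrophage markers 10 were higher and 2 lower (median 0.16, summed 17.2 to 55.8 and 26.1 to 61.9). Centred on the 8 arrays, the endothelial mean was lowest on WT replicates 3 and 4, at −0.41 and −0.33, and so was the macrophage mean, at −0.46 and −0.84. Without those arrays the medians were −0.35 for endothelial and −0.30 for macrophage markers. None of these lists held a gene at an unadjusted p under 0.05, and the part of these cells in the contractile gene values was not tested.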

How the data were processed

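The deposited scanner files hold spot intensities from Agilent Feature Extraction 12.0.0.7, background-subtracted and detrended by the authors' software, per the file headers. The series' deposited value table equalled these intensities on 100% of spots. Each intensity was put on the log2 scale and the 75th percentile of its array (control spots aside) was subtracted. Between 73 and 109 spots per array flagged as outliers were dropped, and repeated spots were averaged. Probes were named through RefSeq accessions in a table of assembly GRCm38.p6. The headers place the array on mm9, so no gene coordinates are given, and promoters carry GRCm38.p6 coordinates. Of 41174 probes, 28215 matched 1 gene and 0 several, and 12959 stayed unnamed. The fit kept 36429 probes that exceeded background clearly on 4 or more of the 8 arrays, and used each gene's brightest probe.

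Genotypes were compared with limma 3.58.1 in R 4.3.3 (lmFit, eBayes, genotype only), with Benjamini-Hochberg adjustment over all genes or all probes and a threshold of 0.05. The procedure was tested on simulated data, with planted log2 differences of 2 and 3 in either direction, larger than that of any member. The scatter was drawn independently for each gene and array. The simulation therefore does not cover differences of the members' size or arrays that deviate together. Named are every member and probe, Glis3, Thy1, the 3 genes of smallest p in each contractile list, the 10 genes most correlated with the members' mean, and defining markers of cell types, except 2 genes not reported here; Srf, Mrtfa and Mrtfb were added after their values were seen. Members and lists were chosen with earlier results of these data known.

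Replicate numbers come from the sample titles. Same-numbered arrays deviated together, with correlations of 0.16, 0.34, 0.18 and 0.13, so the block with the replicate number was treated as a pairing; WT 3 with Glis3KO2 4 (0.14) and WT 4 with Glis3KO2 3 (0.12) also exceeded 0.1. Alternatives covered background correction, scaling, probe filter, probe choice, slide, pairing, spread model, array weights and left-out arrays. The number of arrays limits the precision.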

Additional observations from a re-analysis of the deposited data

Results flagged for a closer look

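In 8 of 128 sets of 4 values (each member probe, named gene and list in each genotype), the gap between an extreme array and its neighbour took up more of the set's range than Dixon's 95% critical value for 4 values allows, which chance gives in about 1 of 20 sets. No explanation was tested. For Myh11 in Glis3KO2 the share was 0.839, with replicate 4 at 3.52 and the next array at 5.19. The dimmer Tagln probe, A_52_P517683, stood out in both genotypes, with WT replicate 2 at 0.43 above −1.57 (share 0.935) and Glis3KO2 replicate 4 at −1.83 below 0.46 (share 0.841). The second Myocd probe, A_52_P557424, had Glis3KO2 replicate 2 at −0.26 above −1.28 (share 0.902). Prkg1, the cGMP-dependent kinase, had Glis3KO2 replicate 4 at −1.79 below −0.04 (share 0.840), the same array as for Myh11 and Tagln. Avpr1a, the vasopressin receptor, had Glis3KO2 replicate 3 at −2.47 below −1.58 (share 0.907).

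The mean of the SRF list on Glis3KO2 replicate 1 was −0.23, below 0.13 on the next array (share 0.897). The mean of the stromal fibroblast markers on Glis3KO2 replicate 2 was 1.75, above 0.06 on the next array (share 0.945), and that array was also the highest for 8 of the 10 contractile genes.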

How the results depend on the processing

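Of 1023 values under alternatives, for the 41 genes the naming rule chose, 0 passed the adjusted threshold and 15 changed sign; the smallest adjusted p of a contractile gene was 0.288. Acta2, Actg2, Myh11, Mylk, Tagln, Cnn1, Des and Myocd stayed higher in Glis3KO2 under every alternative run. Quantile normalization of the processed signal called 1 of all genes, Gm16702 (lower in Glis3KO2; limma adjusted p = 0.0245, and 0.0676 as reported), above background on 4 WT and 0 Glis3KO2 arrays. The 2 contractile genes at an unadjusted p under 0.05 became 8 with normexp and 75th percentile scaling, which moved the median of all genes from −0.08 to −0.23. They became 8 with the replicate block, 7 with array weights, 1 with the slide block, 1 with probes averaged, 0 without WT replicates 3 and 4, and 0 to 8 with 1 array left out. The number of all genes higher in Glis3KO2 at that level, 377 as reported, moved too. It was 419 with normexp and 75th percentile scaling, 769 with the replicate block and 882 with array weights. With the slide block it was 388, with probes averaged 381, and with 1 array left out 215 to 806. The cause was not tested. The contractile lists' median was 0.060 without WT replicates 3 and 4.

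Signs that turned included the following. Without WT replicates 3 and 4, Smtn was −0.28, Lmod1 −0.31, Cald1 −0.065, Flna −0.040 and the medians of endothelial markers −0.35, macrophages −0.30 and Sertoli cells 0.32. With replicates 1 and 2 only, Smtn was −0.19, Lmod1 −0.14, the SRF list −0.068 and Acta2 probe A_52_P239556 −0.0066. With slide 2 only, Lmod1 was −0.083, that probe −0.093 and the Leydig median 0.57. With normexp and 75th percentile scaling, Smtn was −0.035, that probe −0.51 and the endothelial median −0.44. With 1 array left out, Lmod1 ran from −0.13 to 0.29, Smtn from −0.082 to 0.20 and that probe from −0.11 to 0.23. The Leydig, endothelial and macrophage medians also turned with some single arrays left out.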
